A study of Homo sapiens with 2 samples.

Results

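The SLC25 genes encode the mitochondrial carriers, and 48 of the 20015 protein-coding genes of GENCODE release 44 have a symbol made of SLC25A and a number. The rule used the symbol and no measured value, although the family was picked with earlier results of these data known. LDB1 occupancy at these genes was read from CUT&Tag of NB4, a line of human leukemia cells blocked at the promyelocyte stage. In this assay an antibody brings a transposase to chromatin, which cuts and tags the DNA close to the target protein. The series has 2 libraries. The LDB1 antibody was used on cells labelled as overexpressing LDB1, and IgG was used on cells labelled untreated, so antibody and treatment cannot be told apart. Each group has 1 library, no test between groups was possible, and only the list of 11046 LDB1 peaks was used here. The list gives the position and length of a peak without a height, and the depth of the library is unknown. Occupancy without overexpression was not tested.

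Most carriers of this family sit in the inner membrane of mitochondria and move nucleotides, amino acids, organic acids, cofactors and ions that cannot cross it freely. Heme synthesis begins and ends inside mitochondria, and red cell precursors depend on glycine and iron being brought in. SLC25A38 is the carrier linked to glycine import and SLC25A37 (mitoferrin 1) is the main iron carrier of red cell precursors. SLC25A28 (mitoferrin 2) is its more widely used relative. LDB1 itself does not bind DNA. It joins LMO2, TAL1 and GATA factors in a complex best known from red cell and blood stem cell genes.

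To ask whether LDB1 was found at the carriers more often than at other genes, the peaks that overlapped a gene or came within 3 kb of it were counted. Of the 48 genes, 11 had a peak (22.9%, Wilson 95% interval 13.3 to 36.5%). Among all protein-coding genes the share was 19.7%. Other protein-coding genes of the same lengths, taken by 20 length classes, gave 18.3%. Both values lay inside the interval of the family, so the count did not set the carriers apart from genes of their length. The interval is wide, and an equal share is not shown. The interval covers counting error in this library only. The family averaged 0.375 peaks per gene, and other genes of the same lengths averaged 0.34.

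The direction of this small difference depended on the setting. With 50 kb on either side, 16 of the 48 genes had a peak (33.3%, 21.7 to 47.5%), compared with 44.8% of all protein-coding genes and 45.3% at equal lengths. With only the 5520 peaks longer than the median, 4 genes remained (8.33%), compared with 12.5% of all genes. They were SLC25A17, SLC25A21, SLC25A37 and SLC25A42.

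The carriers with a peak were longer genes than those without, with overlapping ranges. The 11 genes with a peak had a median length of 49037 bp, and the 37 without had a median of 18865 bp. Of the 22 carriers up to 20 kb long, 3 had a peak, where 12.3% of all protein-coding genes of that size did. Among the 18 carriers from 20 to 50 kb there were 4 with a peak (20% of all genes of that size), and among the 8 longer ones there were also 4 (28.7% of all genes of that size). The share thus rose with length in the whole gene set as well.

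**Figure D1:**
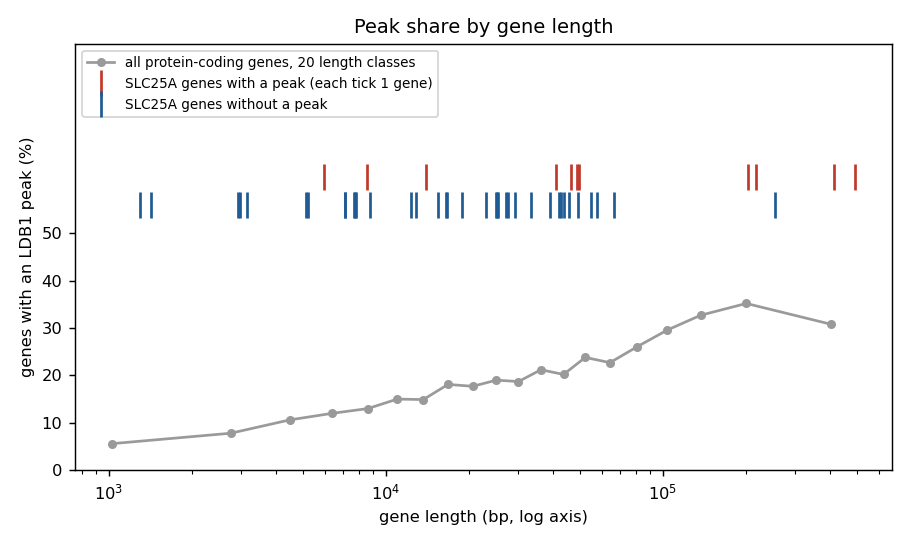
Share of protein-coding genes with an LDB1 peak in the gene or within 3 kb (y axis, %) by gene length (x axis, bp, log axis). Grey points are the 20 length classes of all 20015 genes at their median length, and each tick above the curve is 1 of the 48 carriers, in red with a peak and in blue without. The ticks carry no y value. The grey curve rises from 5.59% in the shortest class to 35.2% in the class with a median of 199873 bp, and is at 30.8% in the longest class.

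Peaks at transcription starts were counted apart from length. A peak midpoint within 3 kb of an annotated start of the gene was found for 7 carriers (14.6%, 7.25 to 27.2%), SLC25A17, SLC25A21, SLC25A25, SLC25A37, SLC25A38, SLC25A45 and SLC25A48. All protein-coding genes had such a peak in 10.3% of cases, a value inside the interval. Only 4 carriers kept one when the start of the canonical transcript alone was used, SLC25A17, SLC25A21, SLC25A37 and SLC25A45 (8.33%, compared with 6.2% of all genes).

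The carriers were then grouped by what they transport. Of 8 carriers of adenine nucleotides, SLC25A25 and SLC25A6 had a peak. Of 10 carriers of cofactors and other nucleotides, SLC25A17 and SLC25A42 did. The carriers of amino acids, glycine and glutathione had 3 genes with a peak among 11, SLC25A12, SLC25A13 and SLC25A38. Genes of the same lengths gave 15.8%, 20.9% and 18.9% for these 3 groups, values inside the interval of each group. SLC25A21 was the only 1 of 5 carriers of di- and tricarboxylates, oxo acids and carnitine, and SLC25A37 the only 1 of 3 carriers of iron and phosphate. None of the 3 uncoupling protein-like carriers had a peak, with an interval of 0 to 56.1%. Of 8 carriers without an assigned substrate here, SLC25A45 and SLC25A48 had a peak. Over all 7 groups, other genes of the same lengths gave between 15.8 and 20.9%, and with so few genes no group was set apart from that.

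**Figure D2:**
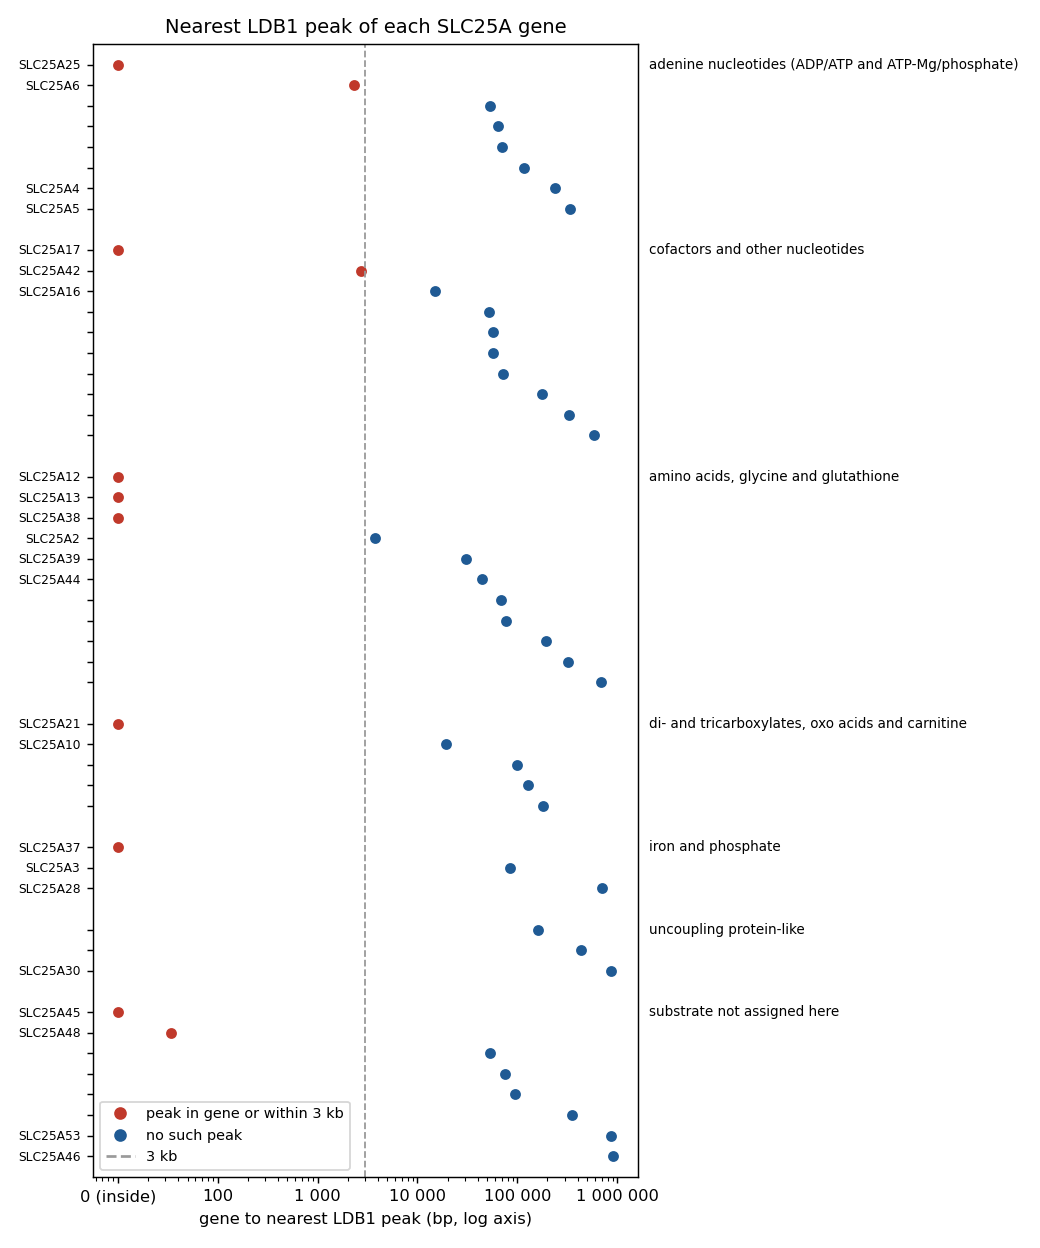
Distance from each of the 48 carriers to its nearest LDB1 peak (x axis, bp, log axis), with genes that overlap a peak drawn at the left edge, by transported substrate, with labels on the genes named in the text. Red points are the 11 genes with a peak in the gene or within 3 kb (dashed line), and blue points are the 37 others, which range from 3765 to 905134 bp.

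The 11 genes held 18 peaks. A single peak was found at 7 of them, 2 peaks at SLC25A25 and at SLC25A38, 3 at SLC25A37 and 4 at SLC25A21. Among all protein-coding genes with a peak, 59.4% had a single one, and 3.97% of all protein-coding genes had 3 or more. For each of the 18 peaks the nearest protein-coding start was that of the carrier itself. Starts of all annotated transcripts were used, and the peaks were picked for lying in the gene or within 3 kb of it. The same share over peaks at other genes was not computed. SLC25A42 and SLC25A6 each shared their peak with a neighbouring gene. By midpoint, 12 peaks lay in introns of the canonical transcript, 1 in an exon and 4 outside the gene. The remaining 1 lay in a part of the gene that only longer transcripts use. These places were not counted for peaks at other genes. Since the peaks were picked by the gene and its 3 kb, a majority in introns is not a trait of the carriers.

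The peaks at the carriers had a median length of 355.5 bp (95% interval from ranked lengths 278 to 656 bp) with quartiles of 279.8 and 637.8 bp, while all peaks had a median of 451 bp and quartiles of 314 and 666 bp. Of the 18 peaks, 12 were shorter than the median of the whole list, which lay inside the interval. The 2128 bp peak near SLC25A42 and the 1405 bp peak of SLC25A37 were the longest, reaching the 98.8 and 95.6 percentiles of all peaks. The shortest, at SLC25A25, was 230 bp, next to a minimum of 229 bp in the whole list.

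**Figure D3:**
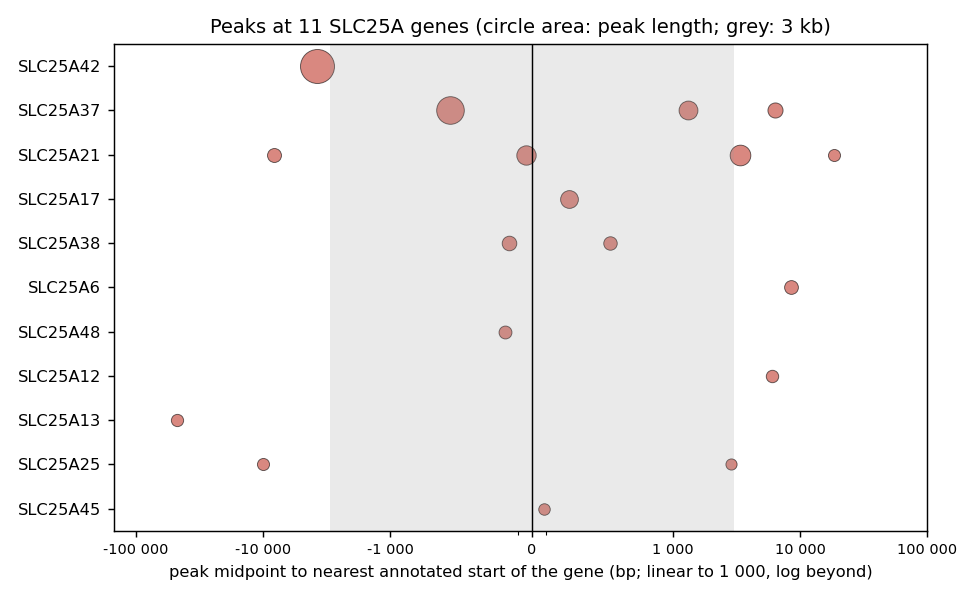
Position of the 18 peaks at the 11 carriers, as the distance of the peak midpoint from the nearest annotated start of the gene (x axis, bp, linear up to 1000 and logarithmic beyond, negative values upstream). The area of a circle is proportional to peak length, from 230 to 2128 bp, and the grey band marks 3 kb on either side of the start, which holds 9 of the 18 midpoints.

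SLC25A38, the glycine carrier (ENSG00000144659.13, chromosome 3, 39383370 to 39397351, plus strand), had 2 peaks. The first, chr3:39387453-39387846 (394 bp), lay in intron 1 of the canonical transcript, 4279 bp past its start. It covered the annotated start of a shorter transcript, 159 bp downstream of its midpoint. The second, chr3:39388754-39389089 (336 bp), lay in the same intron at 5551 bp. Neither covered the canonical start. The central 200 bases of both are shown on the plus strand of hg38, because these are the peaks of the carrier that supplies heme synthesis. Capitals mark a KLF motif (CCNCACCC, read on the other strand) in the first, and an E-box (CAGNTG) followed by an ETS motif (CNGGAAGT) in the second.
SLC25A38 peak 1, chr3:39387550-39387749: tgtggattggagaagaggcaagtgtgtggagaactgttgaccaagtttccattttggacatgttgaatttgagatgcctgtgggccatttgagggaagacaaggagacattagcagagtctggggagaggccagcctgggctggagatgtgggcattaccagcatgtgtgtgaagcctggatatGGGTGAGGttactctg
SLC25A38 peak 2, chr3:39388822-39389021: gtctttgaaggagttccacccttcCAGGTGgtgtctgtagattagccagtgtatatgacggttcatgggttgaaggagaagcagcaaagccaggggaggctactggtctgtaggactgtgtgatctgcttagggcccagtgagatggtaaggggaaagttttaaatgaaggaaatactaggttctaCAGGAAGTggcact
The second peak also held a composite element of the LDB1 complex close to its edge, which is printed with the others below. The RefSeq promoter of SLC25A38, 250 bases before to 50 after its start, overlapped no peak.

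SLC25A21, the carrier of oxodicarboxylates, was the longest gene of the family (ENSG00000183032.12, 494686 bp, chromosome 14, minus strand) and had the most peaks. The peak over its start, chr14:37172118-37172810, was 693 bp long and covered 3 annotated starts, the canonical one among them. Its antisense gene SLC25A21-AS1 runs through the same site, so the peak cannot be given to either gene. Another peak of 786 bp, chr14:37168620-37169405, lay in intron 1, 3594 bp past the canonical start. A shorter one of 269 bp, chr14:37153791-37154059, lay in the same intron at 18681 bp. The fourth, chr14:36767762-36768121, was 360 bp long and lay in intron 3. The start of this gene and its first intron therefore held 3 of its 4 peaks. The promoter of SLC25A21 is shown in the direction of the gene (RefSeq, GRCh38.p14, chr14:37172557-37172856), because the peak covers most of it, and capitals mark the 254 bases inside the peak. The next lines give the central 200 bases of both intron 1 peaks on the plus strand of hg38, with GATA motifs (AGATAA or AGATAG or TGATAA or TGATAG, on either strand) in capitals.
SLC25A21 promoter: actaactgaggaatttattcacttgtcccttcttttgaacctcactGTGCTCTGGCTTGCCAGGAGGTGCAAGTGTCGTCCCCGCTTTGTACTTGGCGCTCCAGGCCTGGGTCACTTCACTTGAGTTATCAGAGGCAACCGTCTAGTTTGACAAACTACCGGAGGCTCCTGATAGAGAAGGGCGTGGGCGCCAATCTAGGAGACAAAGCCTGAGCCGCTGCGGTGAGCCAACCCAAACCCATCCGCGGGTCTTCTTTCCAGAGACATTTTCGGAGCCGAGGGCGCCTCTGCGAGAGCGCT
SLC25A21 intron 1, chr14:37168913-37169112: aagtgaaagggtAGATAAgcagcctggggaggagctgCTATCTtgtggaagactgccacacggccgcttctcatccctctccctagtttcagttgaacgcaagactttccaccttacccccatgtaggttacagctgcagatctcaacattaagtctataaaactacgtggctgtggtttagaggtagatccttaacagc
SLC25A21 intron 1, chr14:37153826-37154025: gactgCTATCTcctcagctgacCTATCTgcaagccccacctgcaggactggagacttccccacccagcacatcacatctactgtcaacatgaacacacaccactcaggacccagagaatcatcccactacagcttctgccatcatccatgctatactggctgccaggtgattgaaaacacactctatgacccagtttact
Each of the intron windows had 2 GATA motifs. The central window of the peak over the start had none, and the whole peak had 2.

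SLC25A17, a carrier of peroxisomes (chromosome 22, minus strand), had 1 peak of 583 bp, chr22:40818760-40819342. It covered 6 of the annotated starts, though not the canonical one, and its midpoint lay in intron 1, 295 bp past the canonical start. None of the motifs searched was in its central 200 bases. SLC25A45, which the study lists among its candidate targets of LDB1, is a short gene of 8510 bp on chromosome 11 and had 1 peak, chr11:65382161-65382406. This peak was 246 bp long and ranked at the 6.61 percentile of all peaks by length. It covered the start of 1 transcript, and its midpoint lay in intron 1, 363 bp past the canonical start. Capitals in its central window mark a RUNX motif (TGTGGT or TGCGGT) and an E-box, both on the other strand.
SLC25A45 peak, chr11:65382184-65382383: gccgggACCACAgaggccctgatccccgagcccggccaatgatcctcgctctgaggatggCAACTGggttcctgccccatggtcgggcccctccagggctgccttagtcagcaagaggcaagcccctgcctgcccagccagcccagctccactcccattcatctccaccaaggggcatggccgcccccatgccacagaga

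The composite element, CTG followed after 7 or 8 bases by a GATA motif, is the sequence that E-box and GATA factors read together in the LDB1 complex. Counted over whole peaks, it occurred in 3 of the 18, at SLC25A38, SLC25A21 and SLC25A6, and in 22.4% of all peaks. The elements are given in capitals in their own orientation with 40 bases on either side, to show that all of them had 8 bases between CTG and the GATA motif.
SLC25A38, chr3:39388717-39388813, plus strand: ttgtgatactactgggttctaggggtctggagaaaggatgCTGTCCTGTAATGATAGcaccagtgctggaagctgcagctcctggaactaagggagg
SLC25A21, chr14:36767788-36767884, plus strand: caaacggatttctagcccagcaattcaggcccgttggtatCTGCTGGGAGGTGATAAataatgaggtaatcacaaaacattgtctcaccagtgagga
SLC25A6, chrX:1383661-1383757, minus strand: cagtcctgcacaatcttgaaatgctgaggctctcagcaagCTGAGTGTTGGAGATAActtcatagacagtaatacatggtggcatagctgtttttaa
The element lay 156 bp from the peak midpoint at SLC25A38, 105 bp at SLC25A21 and 69 bp at SLC25A6. A further composite lay in a RefSeq promoter of SLC25A45, chr11:65382020-65382036, 125 bp outside its peak. It was the only 1 among 50 RefSeq promoters of 40 matched carriers (2%). Of all RefSeq promoters, not all of them of protein-coding genes, 1.33% held one.

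Motifs of the LDB1 partners were counted on both strands in the central 200 bases of each peak. The GATA motif was found in 5 of the 18 peaks (27.8%, 12.5 to 50.9%), compared with 47.1% of all peaks. Over whole peaks it was found in 12 of 18 (66.7%), compared with 71.4%. The composite was in 1 of 18 (5.56%, 0.988 to 25.8%), compared with 11.2% of all peaks. An E-box was in 11 of 18 (61.1%, 38.6 to 79.7%), compared with 51.5%. The GATA share of the carriers was thus below that of all peaks, and the value of all peaks lay inside the interval for each of these motifs. All 5 peaks with a central GATA motif were at SLC25A21, SLC25A37 or SLC25A6. The intervals count peaks of the same gene as separate, so they may be too narrow.

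RUNX was found in 2 peaks (20.5% of all peaks), KLF in 2 (13.6%) and the AP-1 motif TGANTCA in 3 (12%). ETS and the CEBP motif TTGCNNAA were found in 1 peak each, compared with 3.84% and 7.47% of all peaks. A composite match is also a GATA match, so these counts are not separate. A match describes the letters of a window and does not show that a factor was bound there. None of the 8 motifs was present in 4 of the 18 central windows, and in 13.9% of all peaks. The median content of G and C in the central windows was 49.5% at the carriers and 51.5% over all peaks.

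**Figure D4:**
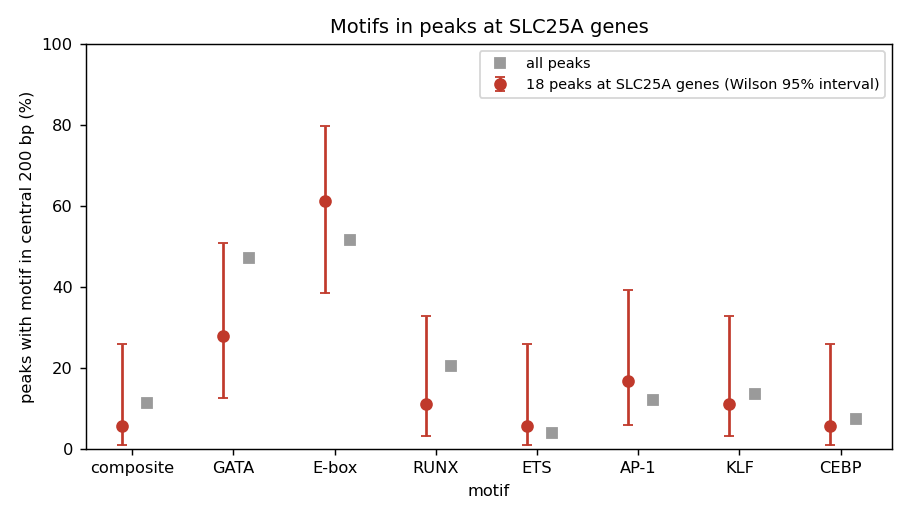
Share of peaks with each motif in the central 200 bp (y axis, %). Red points with bars are the 18 peaks at the carriers with Wilson 95% intervals, and grey squares are all 11046 peaks. Every bar includes the grey square beside it.

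The peaks of SLC25A6, SLC25A42, SLC25A48 and SLC25A12 had weaker ties to their gene. SLC25A6, an ADP/ATP carrier in the pseudoautosomal region of chromosome X, had its peak of 351 bp 2337 bp beyond the end of the gene, where the window of IL3RA also reaches it. The central 31 bases occurred 2 times in hg38. Chromosome Y, which carries the same pseudoautosomal region, was included in that count. At SLC25A42, the coenzyme A carrier, the peak chr19:19059146-19061273 ended 2721 bp before the gene and its midpoint lay inside ARMC6. These were the genes just inside the limit of 3 kb, and SLC25A2, an ornithine carrier with its nearest peak at 3765 bp, was the gene just outside. The peak of SLC25A48 lay 34 bp before the start of its longest transcript, and 357938 bp upstream of the canonical start. At SLC25A12, an aspartate and glutamate carrier, the peak lay 99589 bp upstream of the canonical start and its central 31 bases had 9 copies in hg38. A repeated centre was found in 10.7% of all peaks. Without peaks that reach another protein-coding gene, 9 carriers had a peak (18.8%, compared with 14.7% of all genes). With the span of the canonical transcript, there were also 9 (17.8% of all genes).

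SLC25A13, the related aspartate and glutamate carrier, had 1 peak of 278 bp in intron 3, chr7:96237040-96237317, 84920 bp past the canonical start. SLC25A25, an ATP-Mg/phosphate carrier, had peaks of 270 bp and 230 bp in intron 1, at 13129 and 26230 bp from the canonical start. The second lay 2876 bp past the start of a shorter transcript. The peaks of both genes thus lay inside introns. In the central 200 bases, AP-1 and E-box motifs were found in the first peak of SLC25A25 and no motif in the second, which held a KLF motif outside them.

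SLC25A37, the iron carrier mitoferrin 1 (ENSG00000147454.14, 46508 bp, chromosome 8, 23528956 to 23575463, plus strand), had more peaks within 50 kb than any other of the 48 carriers. Its longest peak, chr8:23527678-23529082 (1405 bp), covered the canonical start and 7 annotated starts in all. A second peak of 656 bp, chr8:23530053-23530708, lay in intron 1, 1424 bp past the canonical start. The third, chr8:23547791-23548212 (422 bp), lay in the same intron at 19045 bp. The central windows of the first and second peaks each had 1 GATA motif, and the whole first peak had 5. The third had none over its whole length.

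Within 50 kb of SLC25A37 there were 14 peaks, which together cover 10915 bp. As many or more were found around 58 of the 20015 protein-coding genes (0.29%), a count in which neighbouring genes share peaks. This window was chosen after seeing the data. Of the 14 peaks, 12 had their midpoint upstream of the canonical start, and 11 overlapped no protein-coding gene. The start of SLC25A37 was the nearest protein-coding start for 11 of them, and that of ENTPD4 for the 3 farthest upstream. The longest of the 14, chr8:23507377-23510794 (3418 bp), lay 19871 bp upstream and held 10 GATA motifs over its whole length. Peaks of 1240 bp at 34904 bp upstream and of 833 bp at 9301 bp upstream followed it among those outside the gene. Over whole peaks, 7 of the 14 held a GATA motif and 1 a composite, compared with 71.4% and 22.4% of all peaks.

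SLC25A28, the other iron carrier, had no peak nearby. The nearest was 700089 bp away at HPSE2. Of all protein-coding genes without a peak, 15.6% were more than 500 kb from one. SLC25A39, the mitochondrial glutathione carrier, had 7 peaks within 50 kb and none within 3 kb. The nearest was 30689 bp from the gene, all 7 lay beyond its 3′ end, and the longest was the 4718 bp peak of SLC4A1, which encodes the band 3 anion exchanger of red cells. The start of SLC25A39 was the nearest protein-coding start for 0 of the 7. As many peaks were found around 2.96% of protein-coding genes.

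**Figure D5:**
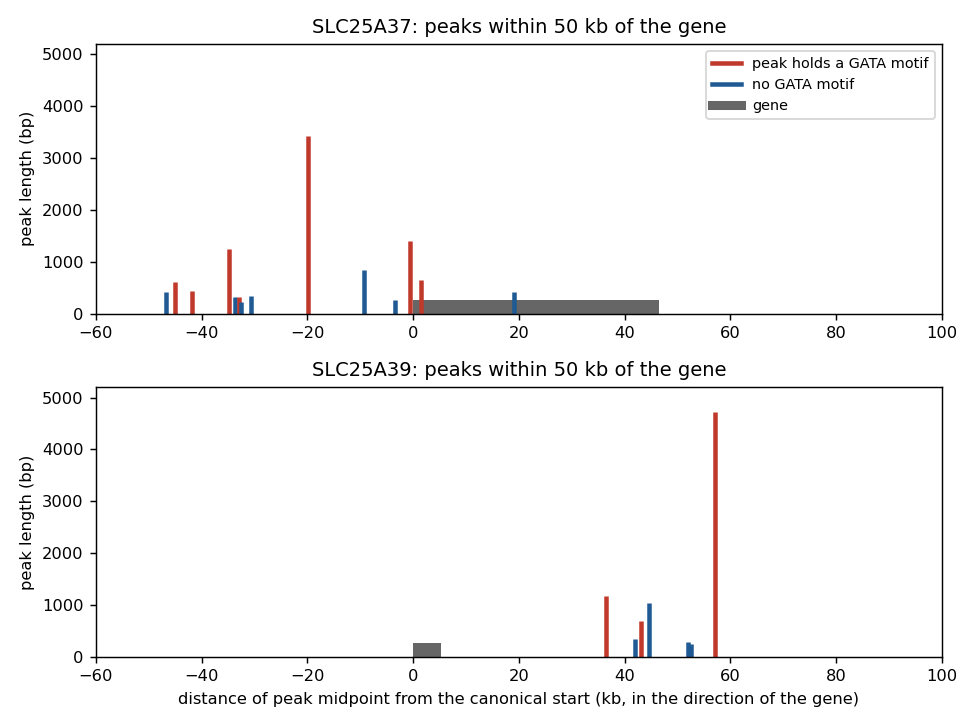
Peaks within 50 kb of SLC25A37 (upper panel, 14 peaks) and SLC25A39 (lower panel, 7 peaks). The x axis is the distance of the peak midpoint from the canonical start in kb in the direction of the gene, and the height of a line is peak length in bp. Red lines hold a GATA motif anywhere in the peak (7 of 14 and 3 of 7), blue lines hold none, and the dark bar is the gene.

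The 37 carriers without a peak were a median of 98270 bp from the nearest one, with quartiles of 57316 and 330989 bp. All protein-coding genes without a peak had a median of 106668 bp. The nearest cases after SLC25A2 were SLC25A16 at 14927 bp, SLC25A10 (dicarboxylate carrier) at 19437 bp, SLC25A39, and SLC25A44 (branched-chain amino acid carrier) at 44357 bp. Thus 5 of the 37 lay within 50 kb of a peak, compared with 31.4% of all protein-coding genes without a peak. No interval was computed for this count, and the 31.4% was not taken at equal gene lengths. At the other end, SLC25A46 was 905134 bp from a peak, SLC25A30 was 865554 bp and SLC25A53 was 865539 bp away. More than 500 kb from a peak were 6 of the 37, SLC25A28 among them, compared with 15.6% of all protein-coding genes without a peak. The ADP/ATP carriers SLC25A4 and SLC25A5 lay 235261 and 337757 bp from a peak, and the phosphate carrier SLC25A3 lay 84059 bp from one.

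The promoters of the family were richer in G and C than all RefSeq promoters. Those came from 27195 genes, more than the 20015 protein-coding genes, so not all of them are promoters of protein-coding genes. The values over protein-coding promoters alone were not computed. The 50 RefSeq promoters had a median of 65.8% G and C and a CpG ratio of observed to expected of 0.891, while all RefSeq promoters had 58.7% and 0.58. A peak overlapped 3 of the 50 (6%), those of SLC25A17, SLC25A21 and SLC25A45, and 2.33% of all promoters. A GATA motif was present in 7 of the 50 (14%), compared with 24.9% of all. Overlapping promoters of SLC25A26 were counted separately among the 7, and no interval was computed for these promoter shares. SLC25A37 was not among the 40 genes matched.

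Related gene lists were read beside the carriers. Of the 5 family members that go by other symbols, UCP2 and UCP3 had 1 peak each, of 907 and 2270 bp (40%, 11.8 to 76.9%, compared with 15.1% at equal lengths), and UCP1, MTCH1 and MTCH2 had none. Other mitochondrial transporters had a peak in 3 of 14 cases (21.4%, 7.57 to 47.6%), compared with 20% at equal lengths. These were the sideroflexins SFXN2, SFXN3 and SFXN5, while the sideroflexins SFXN1 and SFXN4 had no peak. Other genes whose symbol begins with SLC, a number, letters and a number had a peak in 87 of 323 cases (26.9%, 22.4 to 32%). Genes of their lengths gave 21.4%, just below that interval. Other forms of SLC symbol were left out. The intervals of all these lists overlapped that of the carriers.

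Mitochondrial heme and iron genes had a peak in 9 of 15 cases (60%, 35.7 to 80.2%), where genes of their lengths gave 16.9%. They included ALAS2, which begins heme synthesis in red cells and had 2 peaks, and FECH, which inserts iron and also had 2. The transporters ABCB10 and TMEM14C had 3 each. ALAS1, FTMT, ISCU and NFS1 were among those with none. The interval of this list overlaps that of the carriers only from 35.7 to 36.5%. The list was written with earlier results of these data known, so its count is a description. SLC25A37 and SLC25A38, the carriers that supply iron and glycine, were both among the 11 carriers with a peak. SLC25A28, the other iron carrier, had none. More than 1 peak was found at SLC25A37, SLC25A38, SLC25A21 and SLC25A25. A single peak was found at 7 of the 11, and at 59.4% of all protein-coding genes with a peak. With only the peaks longer than the median, SLC25A37 kept a peak and SLC25A38 did not.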

How the data were processed

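CUT&Tag was done by the authors on NB4 cells with antibodies to LDB1 and with IgG. According to the methods and the submitters' processing notes, Bowtie2 2.4.4 was used for alignment to hg38 and MACS3 3.0 for peaks on paired-end fragments, with a limit on the q-value. The IgG library was not used here. Use of IgG as a control, removal of duplicates and filters on regions are not given in the sources used here, so what share of the peaks IgG would also give is not known. The deposited table held start, end and length in bp, counted from 1, and no score.

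Genes and starts came from GENCODE 44, with the chromosome Y copies of pseudoautosomal genes left out. A peak belonged to a gene when it overlapped the gene body or 3 kb on either side. Length classes were 20 groups of equal gene number over all protein-coding genes. The share among other genes was averaged over the classes of the carriers. Motifs were searched as letters on both strands. Promoters came from RefSeq (GRCh38.p14), and the central 31 bases of peaks were counted in hg38. Intervals are Wilson 95% intervals and cover counting error only. Computation used pysam 0.24.0 and pandas 2.3.3 with Python 3.11.15, SciPy 1.17.1, matplotlib 3.10.9 and numpy 2.4.6. Counting and motif search were tested on simulated data.

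The carriers, lists and motifs were chosen with earlier results of these data known. Named genes were the carriers with a peak, SLC25A37, SLC25A38, SLC25A28 and SLC25A45, the 5 nearest and 3 farthest of the others. SLC25A3, SLC25A4 and SLC25A5 and genes of the related lists were named after their values were seen. Alternatives were other windows, transcripts, peak subsets and length classes. The window of 50 kb, the canonical span, the peaks of a single gene and, for starts, the peaks with a central sequence found once were added after seeing the data. A stricter q-value could not be applied, since the table has none. Some genes of the lists are counted but not reported by name here.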

Additional observations from a re-analysis of the deposited data

How the results depend on the processing

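No paired analysis was possible because there was 1 library per group. Over 7 results and 38 alternatives, 28 values stayed within the 95% interval of the same result as reported (for the share at equal lengths, that of a share over 48 genes), or within 1.5 times for counts of peaks, and 10 did not. With the 5520 peaks above the median length, the share of carriers with a peak was 8.33%, the number of peaks 6 and the share with a peak at a start 6.25%. The share at equal lengths was 11.7% with the same peaks and stayed within its interval. By construction these peaks are fewer. At 50 kb the share at equal lengths was 45.3%, which follows from the wider window. The GATA share was 11.1% in 100 bp and 66.7% over whole peaks, as a longer window holds more matches. The composite share was 0% in 100 bp (0 of 18, where 3 counts of the total allow up to 16.7%), in the longer peaks (0 of 6, up to 50%), in peaks of the gene body (0 of 15, up to 20%) and in peaks whose central bases had a single copy (0 of 16, up to 18.8%). The last 3 settings leave out the SLC25A6 peak, the only 1 with a composite in its central 200 bases. The depth of the library is unknown, so a gene without a peak is not shown to lack LDB1, and no result here has a replicate.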

Other observations

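Entries of the annotation that carry an SLC25A name but are not protein-coding genes were also searched with 3 kb on either side. Of 43 pseudogenes, 1 had a peak, SLC25A3P2 on chromosome 12, with 2 peaks whose central sequences occur once in hg38. Of 8 long noncoding RNAs, SLC25A21-AS1 and SLC25A25-AS1 had peaks. Those of SLC25A21-AS1 were also counted at SLC25A21, and the gene they belong to cannot be told apart. SLC25A25-AS1 had 2 peaks that no SLC25A gene reaches within 3 kb, the longer 1481 bp. These genes were named after their values were seen. The shares over all pseudogenes and all long noncoding RNAs were not computed, so neither count can be called high or low.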
